A study of Mus musculus with 3 samples.

Results

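The genes described here encode the subunits of heterotrimeric G proteins and the regulators of G protein signalling (RGS proteins). They are the rows of the count tables whose symbols match the numbered alpha (Gna), beta (Gnb), gamma (Gng) and RGS (Rgs) families. The rule found 52 of 32531 gene rows, with 16 alpha, 5 beta, 10 gamma and 21 RGS genes. The RNA came from the cerebral cortex of adult, untreated C57BL/6J mice carrying the Kcnip2-TRAP transgene, line NIDA115. In such a line, regulatory sequences of Kcnip2, a gene for an auxiliary subunit of Kv4 potassium channels, drive a fusion of green fluorescent protein and ribosomal protein L10a, and an antibody to the fluorescent protein then pulls down tagged ribosomes with the mRNA on them. All 3 libraries are such immunoprecipitates and form 1 group, so the data give levels and their spread, not a change between conditions. No input library was analysed here, so a level may include RNA from untagged cells, and fewer cells of a type cannot be told apart from less RNA per cell. The labels do not say whether the libraries came from separate animals, so the spread between them may be technical.

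The libraries held 11602248 to 14174384 gene counts. Of the marker genes, 10 of 10 pan-neuronal genes were detected, with a summed 40437 to 46846 CPM (counts scaled to library size) per library. Astrocyte genes were present (7 of 7, summed 1507 to 2417 CPM), as were oligodendrocyte genes (6 of 6, 483 to 664 CPM). Microglial (4 of 7, 35.5 to 59.7 CPM), pericyte and mural (5 of 6, 13.7 to 35.4 CPM) and endothelial genes (2 of 6, 7.08 to 12.8 CPM) were low. Detected means 1 CPM or more in every library. Levels of different genes are compared as CPM per kilobase of annotated exon (CPM/kb), means are given ± SD over n = 3 libraries, and per-library values run in the order of replicates 1, 2 and 3. Levels of different genes depend on the length used, so levels were also computed per longest transcript, per longest coding sequence and undivided, and ratios that moved by over 1.5 times are given under those settings too.

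A G protein is an alpha subunit, which binds GTP or GDP, and a beta-gamma dimer. A receptor at the membrane makes the alpha subunit swap GDP for GTP, and alpha and beta-gamma then act on separate targets. RGS proteins end the signal by speeding the hydrolysis of GTP. In cortical neurons this pathway carries the slow actions of glutamate, GABA, acetylcholine, monoamines and peptides. Alpha subunits fall into a Gi/o family, which lowers cyclic AMP and frees beta-gamma for potassium and calcium channels, a Gs family, which raises cyclic AMP, a Gq family, which activates phospholipase C beta, and a G12 family, which acts on the cytoskeleton through exchange factors for small GTPases.

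The alpha genes differ at the end of the coding sequence, the part that meets the receptor. The last 18 coding bases of the leading genes are shown with the fourth codon before the stop in capitals, from principal transcripts of GENCODE M21 on GRCm38. Pertussis toxin modifies a cysteine at that place. In these transcripts the Gi/o genes other than Gnaz code for it, and no alpha gene of another family does. Other annotated transcripts can differ: of the Gnao1 coding ends, 3 had a cysteine codon there, 1 a leucine codon and 2 another.
Gnai1 (chr5:18267019-18267036, minus strand): gacTGTggtctcttctaa
Gnao1 (chr8:93967038-93967055, plus strand): ggcTGCggcttgtactga
Gnaz (chr10:75015195-75015212, plus strand): tacATCggcctttgctga
Gnas (chr2:174346371-174346388, plus strand): caaTACgagctgctctaa
Gnaq (chr19:16383377-16383394, plus strand): gagTACaatctggtctaa
A cysteine codon (TGT or TGC) stood at this place in 7 of the 16 alpha genes, namely Gnai1, Gnai2, Gnai3, Gnao1, Gnat1, Gnat2 and Gnat3. Together these 7 supplied 52.4% ± 2.16 of alpha CPM/kb, with 50.1%, 52.7% and 54.4% in the 3 libraries. Their share was 40.8% per longest transcript, 58.2% per coding length and 41.3% undivided.

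The gamma genes end in a codon that fixes the lipid anchor. A leucine codon directs the longer geranylgeranyl anchor and a serine codon the shorter farnesyl anchor. The last 15 coding bases are shown with the final codon before the stop in capitals, for the 3 most abundant gamma genes and for the serine type.
Gng3 (chr19:8838143-8838157, minus strand): tgtgcgctcCTCtga
Gng2 (chr14:19875807-19875821, minus strand): tgcgccatcCTTtaa
Gng7 (chr10:80951621-80951635, minus strand): tgcataattCTCtag
Gng11 (chr6:4008146-4008160, plus strand): tgtgtcattTCAtaa
Of the 10 gamma genes, 9 end in a leucine codon, and they held 99.9% ± 0.129 of gamma CPM/kb. Gng11, the only serine type among them, held 0.114% ± 0.129 (0.0476% to 0.114% over the length settings), with 12, 3 and 1 counts.

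Of the 52 genes, 37 were detected (71.2%), against 37.3% of all 32531 gene rows, of which 18703 had any read. At 10 CPM or more in every library were 27 genes (51.9%, against 23.6% of all rows), and at 100 CPM or more were 15 (28.8%, against 5.75%). By class, 11 of 16 alpha, 4 of 5 beta, 7 of 10 gamma and 15 of 21 RGS genes were detected. No read fell on 5 genes (9.62%, against 42.5% of all rows), which were Gnat3, Gnb3, Rgs18, Rgs21 and Rgs22. For these a count of 0 allows up to 0.213 to 0.256 CPM, for counting error only. The other 10 genes short of detection were Gna14, Gna15, Gnat1, Gnat2, Gng8, Gng11, Gng13, Rgs1, Rgs11 and Rgs13. All 52 genes took 1.14%, 1.13% and 1.13% of gene counts.

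Summed over a class, alpha genes reached 1040.04 ± 5.15 CPM/kb, gamma genes 399 ± 23.6, RGS genes 315 ± 25.5 and beta genes 208 ± 2.69. Alpha genes thus had the largest sum and beta genes the smallest, as they also did per longest transcript, per coding length and without division by length. The order of gamma and RGS rests on the length. Gamma was above RGS in 3 of 3 libraries per exon and per coding length and below it in 3 of 3 without division (905 ± 29.7 against 1418 ± 100.5 CPM). Per longest transcript it was above in replicate 1 alone (439, 402 and 396 against 358, 412 and 408). The median of the 37 detected members was 14.6 CPM/kb, against 4.77 over all 11762 detected genes with a length, and it was 36.2 for alpha, 18.3 for beta, 16.1 for gamma and 3.76 for RGS genes.

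**Figure D1:**
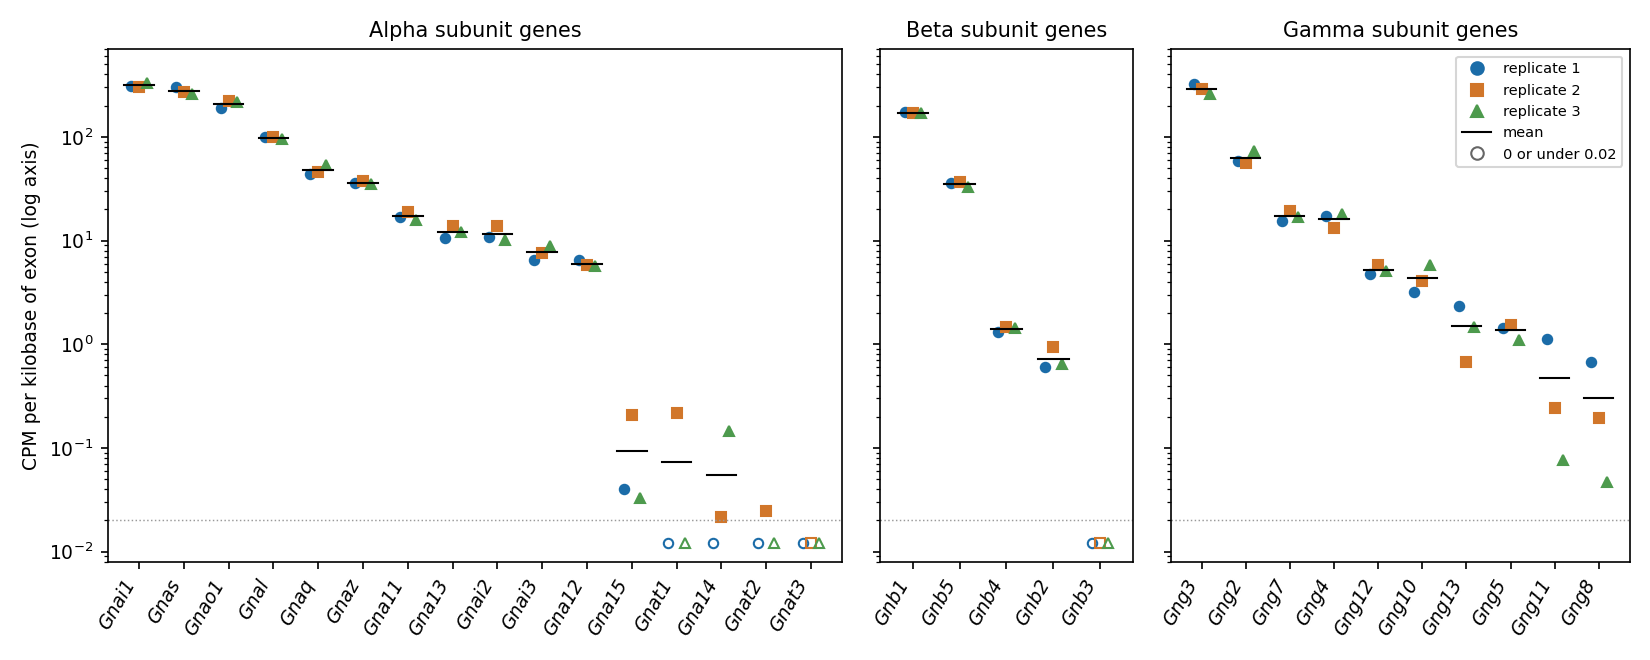
Levels of the alpha, beta and gamma subunit genes in CPM per kilobase of exon (log axis), with 1 point per library, a line at the mean and open points for values of 0 or under 0.02. A few genes lead each class: Gnai1, Gnas and Gnao1 at 209 to 317 CPM/kb, Gnb1 at 170 and Gng3 at 290, while Gnat3 and Gnb3 have no read in any library.

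Gnai1, Gnas and Gnao1 led the alpha genes. Gnai1 (chromosome 5, 18265135 to 18360355, GRCm38), an inhibitory subunit for adenylyl cyclase, was at 311, 306 and 333 CPM/kb (317 ± 14.1). Gnas (chromosome 2, 174284320 to 174346744), the stimulatory subunit, was at 302, 270 and 260 CPM/kb (277 ± 22.4). Gnao1 (chromosome 8, 93809966 to 93969388), the Go subunit that is a major protein of neuronal membranes, was at 190, 220 and 217 CPM/kb (209 ± 16.3). The values of these genes did not overlap between libraries and kept 1 order in all 3. That order rests on the length: per longest transcript Gnas came first (786 ± 63.6), before Gnao1 (418 ± 32.7) and Gnai1, and per coding length Gnao1 came first (2177 ± 170). The Gnas locus holds several alternative first exons, and its union of exons was 11186 bases, against 3947 for its longest transcript. Its longest coding sequence was 3399 bases, against 1062 for Gnai1 and for Gnao1, which lowers Gnas against both per coding length. On the other strand, Gm20721 overlaps 13.1% and Nespas 8.83% of Gnas exon, and of these only Nespas is among the counted symbols.

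The other Gi/o genes lay far below Gnai1. Gnaz, whose product lacks the toxin's cysteine and signals in neurons, was at 36.1, 37.1 and 35.3 CPM/kb, close to equal in the 3 libraries. Gnai2, which is broadly expressed and strong in immune cells, was at 10.9, 13.9 and 10.1 CPM/kb, and Gnai3, another broadly expressed inhibitory gene, at 6.53, 7.65 and 8.95. Gnai1 exceeded Gnai2 27.4-fold (log2 ratio 4.78 ± 0.29) and Gnao1 exceeded it 18.1-fold (4.18 ± 0.22), each in 3 of 3 libraries. Over the length settings the first ratio ran from 16.1- to 27.4-fold and the second from 18.1- to 53.1-fold. Gnaz was below Gnai1 (log2 ratio -3.13 ± 0.10). Gnai2 was above Gnai3 in every library, by 0.59 ± 0.36 on the log2 scale, with the smallest gap, 0.18, in replicate 3 and a mean of up to 1.36 per longest transcript.

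In the Gs family, Gnal stood beside Gnas. Gnal encodes Golf, which couples receptors to cyclic AMP in olfactory and striatal neurons, and was at 101, 99.8 and 94.6 CPM/kb (98.3 ± 3.26). Gnas exceeded it 2.81-fold (log2 ratio 1.49 ± 0.08) per exon, 4.10-fold per longest transcript and only 1.11-fold (0.16) per coding length. That last value divides Gnas by a longest coding sequence of 3399 bases and Gnal by 1 of 1344. Genes typical of striatal projection neurons, of which 6 of 8 were detected, summed to 188, 267 and 191 CPM, a pattern between libraries that Gnal, at 1124, 1115 and 1057 CPM, did not follow. Their part in the level of Gnal was not tested.

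Gnaq led the Gq family at 43.6, 45.5 and 53.3 CPM/kb, and Gna11, its broadly expressed paralog, was at 16.9, 19.0 and 15.9. The ratio was 2.74-fold (log2 1.46 ± 0.25), and Gnao1 exceeded Gnaq 4.41-fold (2.14 ± 0.12). Under other lengths these reached 4.14-fold and 8.06-fold. Of the G12 family, Gna13 was at 10.6, 13.7 and 12.1 CPM/kb and Gna12 at 6.44, 5.84 and 5.68, so Gna12 was the lower in all 3 libraries (log2 ratio -1.02 ± 0.26, and -1.93 per coding length). Gna13 and Gnai2 overlapped in level and changed order between libraries. As families, Gi/o held 55.9% ± 2.13 of alpha CPM/kb, Gs 36.1% ± 2.57, Gq 6.24% ± 0.399 and G12 1.74% ± 0.122. Gi/o over Gs turned round per longest transcript, at 42.8% against 52.3%, and without division by length, at 42.9% against 51.4%. Per longest transcript Gq held 3.90% and G12 0.998%.

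Several alpha genes lie beside a paralog. With a gap under 500 kb, 5 pairs of alpha genes are neighbours, among 14 such pairs of members of any class. In each alpha pair 1 gene was detected and the other was not. Gnai1 lies 245.3 kb from Gnat3, the gustducin gene of taste cells, which had no read. Gnai2 lies 39.1 kb from Gnat1, the rod transducin gene, which had 0, 9 and 0 counts. Gnai3 lies 5.85 kb from Gnat2, the cone transducin gene, which had 0, 1 and 0 counts. Gnaq lies 48.3 kb from Gna14 (0, 1 and 7 counts), and Gna11 lies 4498 bases from Gna15 (1, 6 and 1 counts), a Gq gene of blood cells. Of the other member pairs, Rgs2 with Rgs13 and Gng7 with Gna15 also had 1 gene detected. Rgs4 with Rgs5, Rgs8 with Rgs16 and Rgs9 with Gna13 had both detected, and the rest neither. No share over neighbouring pairs of all genes was computed. These pairs are a description of the members' positions, chosen after their levels were known.

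Gnb1 dominated the beta genes. Gnb1 (chromosome 4, 155491361 to 155559269), the common brain beta subunit, was at 173, 169 and 170 CPM/kb (170 ± 1.90) and held 82.02% ± 0.808 of beta CPM/kb. Gnb5 (chromosome 9, 75306288 to 75345876), the atypical beta that pairs with RGS proteins of the R7 subfamily in place of a gamma subunit, was at 35.6, 36.8 and 33.2 CPM/kb and held 16.9% ± 0.737 (11.2% per coding length). Gnb4 was at 1.32, 1.45 and 1.43 CPM/kb. Gnb2, a broadly expressed beta gene, was at 0.601, 0.933 and 0.646 CPM/kb on only 24, 43 and 31 counts. Gnb1 exceeded Gnb2 by 7.90 ± 0.35 on the log2 scale (239-fold) and Gnb4 by 6.92 ± 0.09 (121-fold). Gnb4 has a union of exons of 12692 bases, and its ratio was 40.8-fold (5.35) per coding length and undivided. Gnb2 was below Gnb5, with a log2 ratio of -5.63 ± 0.30. The ranges of these 4 genes did not overlap, and Gnb3, which serves cones and taste cells, had no read. The longest transcript of Gnb2 was 1860 bases with 59.9% G and C, the highest GC of the 52 genes, and that of Gnb1 was 3143 bases with 48.1%. The part of base composition in the level of Gnb2 was not tested.

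Gng3 led the gamma genes. Gng3 (chromosome 19, 8836933 to 8839194), a gamma subunit of neurons, was at 322, 288 and 261 CPM/kb (290 ± 30.6) and held 72.6% ± 3.84 of gamma CPM/kb. Gng2 (chromosome 14, 19872559 to 19977627), a widely used brain gamma, was at 58.0, 55.8 and 72.5 CPM/kb and held 15.6% ± 2.92 (31.1% per coding length and 30.1% undivided). Gng3 was thus highest in replicate 1 and Gng2 in replicate 3. Gng2 stood below Gng3 in every library, at a log2 ratio of -2.23 ± 0.34. The gap was smaller per coding length (-0.73) and undivided (-0.81). These values have a limit in the annotation: 24.2% of Gng3 exon overlaps Bscl2 on the other strand and 20.4% of Gng2 exon overlaps Gm48283. Bscl2 is among the counted symbols and Gm48283 is not. No source used here says how strand was handled.

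Gng7, the usual partner of Golf in striatum, was at 15.3, 19.4 and 17.0 CPM/kb, and Gng4 was at 17.4, 13.1 and 17.9. The ranges of Gng7 and Gng4 overlapped and their order changed between libraries, so neither stood above the other. Gng3 exceeded Gng7 16.8-fold (log2 ratio 4.07 ± 0.28, and 6.72-fold per coding length) and Gng2 exceeded it 3.59-fold (1.84 ± 0.29). Gng12 was at 4.78, 5.84 and 5.14 CPM/kb, below Gng2 by a log2 ratio of -3.56 ± 0.28. Gng10 was at 3.18, 4.05 and 5.82 CPM/kb, and 72.0% of its exon is shared with Gm20503 on the same strand, which is not among the counted symbols. Gng5 was at 1.45, 1.55 and 1.10 CPM/kb, and transcripts of 4 other loci, the pseudogenes Gng5-ps, Gm13342 and Gm3150 among them, match it at 95% identity or more over at least 200 bases. Gng13, known from taste and retina, was at 2.32, 0.669 and 1.47 CPM/kb, and 51.6% of its exon overlaps Chtf18. Gng13 was below Gng3 by a log2 ratio of -7.78 ± 0.86, the widest spread among the 28 pairs compared (-8.87 undivided). Gng8, a gamma gene of olfactory and vomeronasal neurons, had 12, 4 and 1 counts.

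**Figure D2:**
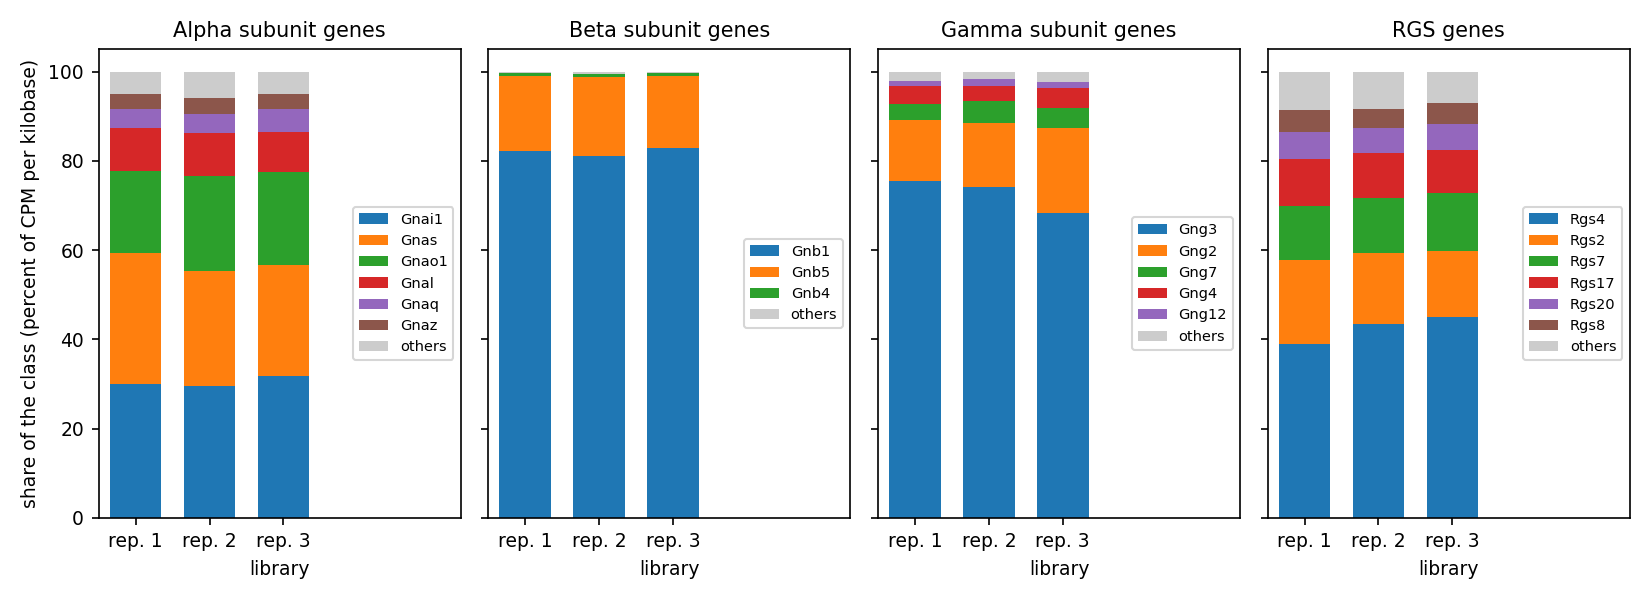
Share of each class held by its leading genes in each library, as percent of the CPM per kilobase of exon summed over the class, with all other members of the class in grey. The alpha class is spread over several genes, whereas Gnb1 holds 81.2% to 82.8% of the beta class and Gng3 68.3% to 75.5% of the gamma class.

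Among RGS genes, Rgs4 was the most abundant, under every length divisor used. Rgs4 (chromosome 1, 169741477 to 169747642), a cortical GTPase activator for Gi/o and Gq subunits, was at 111, 144 and 148 CPM/kb (134 ± 20.1) and held 42.5% ± 3.17 of RGS CPM/kb. That share was 35.9% per longest transcript, 34.7% per coding length and 29.3% undivided. Rgs2 (chromosome 1, 143999338 to 144004161), an activity-induced regulator that prefers Gq, was at 54.0, 53.1 and 48.4 CPM/kb (51.8 ± 3.04). Rgs7 (chromosome 1, 175059087 to 175492500) was at 34.6, 40.7 and 42.5 CPM/kb (39.3 ± 4.13). Rgs4 was lowest in replicate 1, as was Rgs7, while Rgs2 was lowest in replicate 3. Rgs4 exceeded Rgs2 2.58-fold (log2 ratio 1.36 ± 0.29) and Rgs7 3.41-fold (1.77 ± 0.07), each in 3 of 3 libraries. The ratio of Rgs4 to Rgs7 was 1.75-fold undivided. The order of Rgs2 and Rgs7 is not resolved: Rgs2 was above Rgs7 in 3 of 3 libraries per exon and per coding length, in 1 of 3 per longest transcript (62.2 ± 3.65 and 64.3 ± 6.76) and in 0 of 3 undivided.

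The R4 subfamily, small proteins that are little more than the RGS domain, held 65.2% ± 0.625 of RGS CPM/kb, almost all of it from Rgs4, Rgs2 and Rgs8. Rgs8 was at 14.3, 14.1 and 15.4 CPM/kb, 9.14-fold below Rgs4 (log2 ratio, Rgs4 over Rgs8, 3.19 ± 0.21). That gap was 2.58-fold (1.37) per coding length and 2.94-fold (1.55) undivided. Rgs16 was at 3.06, 2.30 and 1.39 CPM/kb. Rgs5, a marker of pericytes, was at 1.26, 2.10 and 1.99 CPM/kb and lay 76.7-fold below Rgs4 (6.26 ± 0.19, and 46.2-fold per coding length). The pericyte and mural markers summed to 13.7, 30.9 and 35.4 CPM, lowest in replicate 1 like Rgs5 at 5.71, 9.53 and 9.07 CPM. Their part in the level of Rgs5 was not tested. Rgs3, a larger member with several isoforms, was at 0.355, 0.431 and 0.354 CPM/kb.

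Chromosome 1 carries 11 of the 21 RGS genes, among them 9 of the 10 R4 genes, and neighbours there differed widely in level. Rgs4 lies 45.7 kb from Rgs5, and Rgs8 lies 40.02 kb from Rgs16. Rgs2 opens a run of 5 genes with Rgs13, Rgs1, Rgs21 and Rgs18 (143999338 to 144775435), with gaps of 64.9 to 267.4 kb, and only Rgs2 in that run was detected. Rgs13 and Rgs1, known from lymphocytes, had 5, 4 and 16 counts and 0, 31 and 0 counts, and Rgs18 of platelets and Rgs21 of taste cells had none. All 31 counts of Rgs1 and all 9 of Gnat1 were thus in replicate 2.

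**Figure D3:**
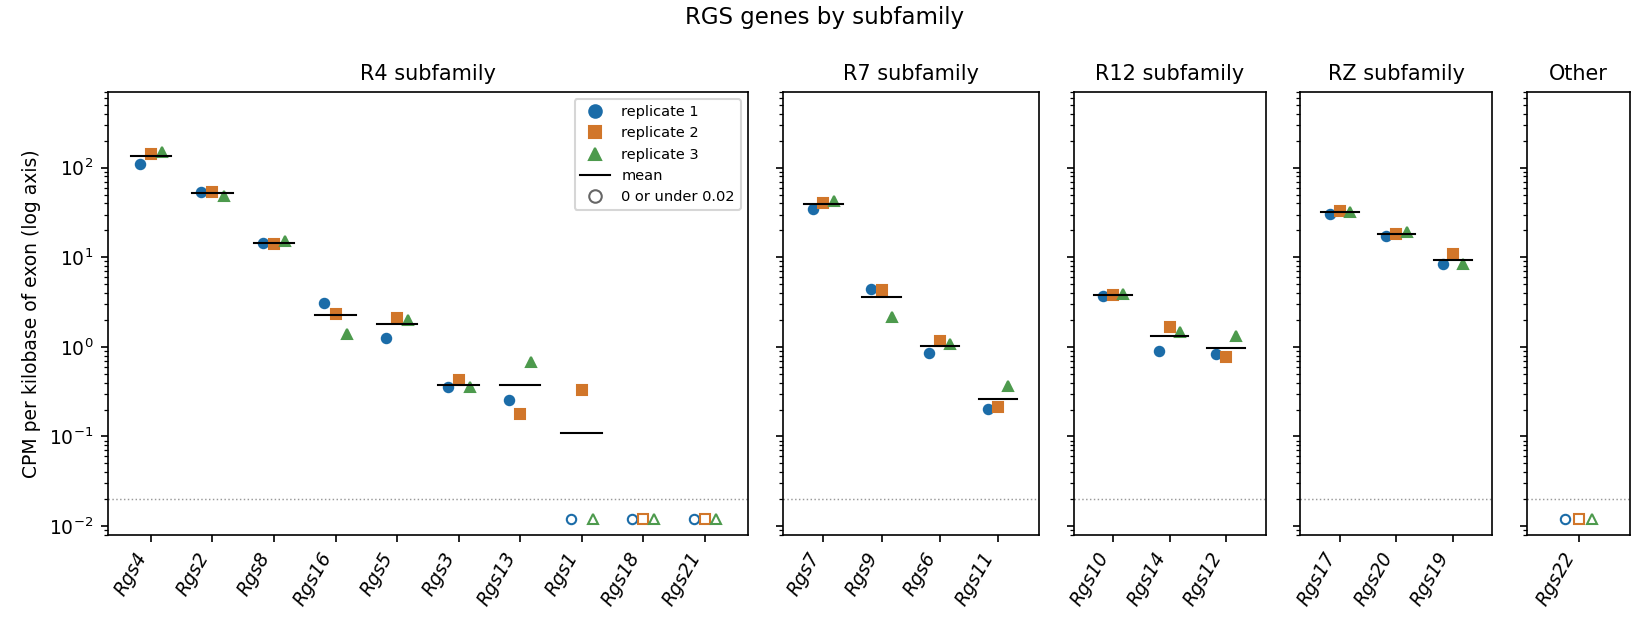
Levels of the RGS genes by subfamily in CPM per kilobase of exon (log axis), with 1 point per library, a line at the mean and open points for values of 0 or under 0.02. The highest gene is Rgs4 at 134 CPM/kb in R4, Rgs7 at 39.3 in R7, Rgs10 at 3.76 in R12 and Rgs17 at 31.9 in RZ. The leads of Rgs10 and Rgs17 depend on the length used. Rgs18, Rgs21 and Rgs22 have no read.

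The R7 subfamily, whose proteins need Gnb5 for stability, held 14.02% ± 0.0112 of RGS CPM/kb, a share that hardly moved between libraries (14.03%, 14.01% and 14.01%). It was 18.6% per longest transcript, so the small SD does not cover the choice of length. Rgs7 supplied most of the share. Rgs9, a striatal and photoreceptor regulator, was at 4.47, 4.32 and 2.13 CPM/kb, Rgs6 at 0.850, 1.16 and 1.08, and Rgs11, known from retinal bipolar cells, at 0.203, 0.211 and 0.371. Rgs7 exceeded Rgs6 38.3-fold (log2 ratio 5.26 ± 0.11, and 23.0-fold undivided), Rgs9 11.3-fold (3.50 ± 0.72) and Rgs11 156-fold (7.28 ± 0.39). Summed over the subfamily, R7 genes gave 40.1, 46.4 and 46.04 CPM/kb, beside 35.6, 36.8 and 33.2 for Gnb5. That closeness rests on the length: undivided, R7 genes gave 246, 285 and 282 CPM, beside 111, 115 and 103 for Gnb5. Gnb5 was above Rgs7 in 1 of 3 libraries per exon (log2 ratio -0.15 ± 0.20) and in 0 of 3 under the other lengths, a pair chosen after its values were seen. The mean log2 ratio was -0.30 per longest transcript, -0.83 per coding length and -1.10 undivided. Of the membrane anchors of R7 complexes, Rgs7bp was at 102 ± 2.18 CPM/kb and Gpr158 at 48.5 ± 3.70, while Rgs9bp and Gpr179, which serve photoreceptors and bipolar cells, were not detected.

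The RZ subfamily, named for its action on Gz, held 18.8% ± 0.670 of RGS CPM/kb, with 21.0% per longest transcript. Rgs17 (chromosome 10, 5825663 to 5922400) was at 30.2, 33.2 and 32.3 CPM/kb, Rgs20 at 17.2, 18.4 and 19.1 and Rgs19 at 8.45, 10.9 and 8.42. Rgs17 exceeded Rgs20 by 0.81 ± 0.05 on the log2 scale, a ratio that turned to -0.17 per longest transcript and was 2.47 per coding length. It exceeded Rgs19 by 1.79 ± 0.17, with 1.25 per longest transcript and 3.77 per coding length. The R12 subfamily held 1.93% ± 0.0806, with 2.86% per longest transcript and 0.885% per coding length. Rgs10, a small regulator of neurons and microglia, was at 3.69, 3.75 and 3.85 CPM/kb, with the lowest F ratio of spread among the members tested (0.00525, explained below). Rgs10 rested on 74, 87 and 93 counts. Microglial markers summed to 35.5, 59.7 and 52.9 CPM in the same libraries. Of these markers, Csf1r, Cx3cr1 and C1qa were lowest in replicate 1, P2ry12 in replicate 2, and Tmem119, Aif1 and Tyrobp in replicate 3. The part of microglial RNA in the level of Rgs10 was not tested. Rgs14, known from hippocampal area CA2 neurons, was at 0.905, 1.65 and 1.45 CPM/kb, and Rgs12 at 0.844, 0.766 and 1.33. Among these low RGS genes the order is not resolved: Rgs10 and Rgs9, Rgs16 and Rgs5, and Rgs6 and Rgs12 each had overlapping ranges and changed order between libraries. Rgs10 exceeded Rgs14 2.90-fold (log2 ratio 1.54 ± 0.44), but 1.17-fold (0.23) undivided, when it was higher in 2 of 3 libraries. Rgs12 lay below Rgs14 in 3 of 3 libraries per kilobase (-0.45 ± 0.58), with ranges that overlapped. Undivided it was above Rgs14 in 2 of 3 libraries, with a mean log2 ratio of 0.55. Rgs12 was then also above Rgs10 in every library, at 7.16, 6.50 and 11.3 against 6.31, 6.42 and 6.59 CPM.

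**Figure D4:**
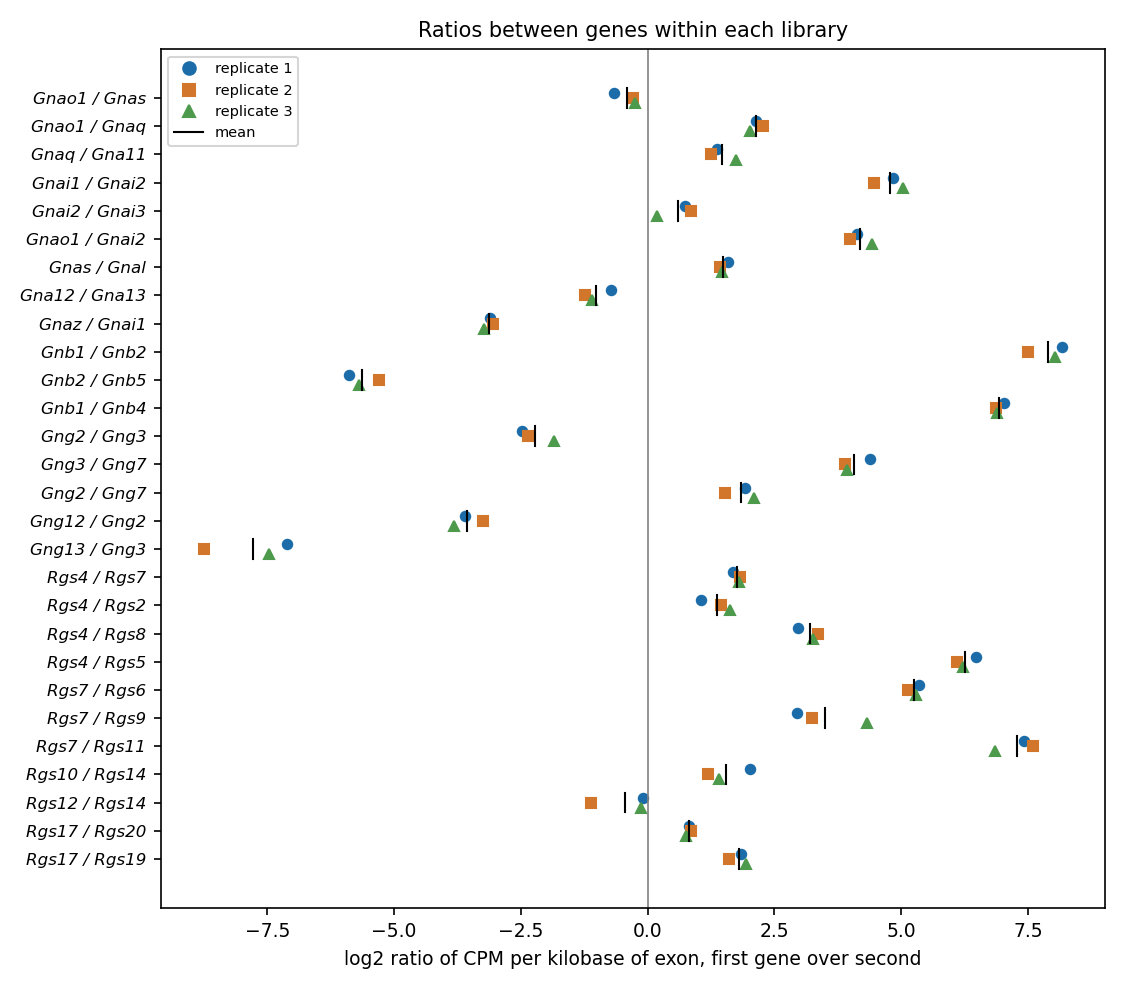
Log2 ratios of CPM per kilobase of exon between 28 pairs of G protein or RGS genes, the first gene over the second, with 1 point per library and a line at the mean. In 20 pairs the first gene is higher in all 3 libraries and in 8 it is lower, from -7.78 for Gng13 over Gng3 to 7.90 for Gnb1 over Gnb2.

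In all, the first gene of a pair was higher in every library in 20 of 28 pairs and lower in 8. These counts were 19 and 9 per longest transcript, 21 and 7 per coding length, and 19 and 7 undivided, where Rgs10 over Rgs14 and Rgs12 over Rgs14 were mixed. These pairs share genes and libraries, and an exact two-sided sign-flip test over 3 libraries cannot go below p = 0.25, so no pair was called by a test.

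Genes that act with the G proteins were represented by a few abundant members each. The counts of detected genes stand against 37.3% of all gene rows, and levels here are in CPM/kb of exon only. Among the enzymes that alpha subunits act on, 7 of 9 adenylyl cyclases, which make cyclic AMP, were detected, led by Adcy1, the calmodulin-stimulated enzyme, at 51.6 ± 1.85 CPM/kb and Adcy9 at 23.9 ± 1.30. All 4 phospholipase C beta genes were detected, with Plcb1 at 60.2 ± 4.68 and Plcb4 at 19.98 ± 1.12. Plcb2 was at 0.188 ± 0.0228, on only 13, 19 and 17 counts. Of the GIRK potassium channels opened by beta-gamma, 3 of 4 were detected, with Kcnj3 at 32.0 ± 2.24, Kcnj9 at 11.96 ± 0.685 and Kcnj6 at 10.3 ± 0.508, and Kcnj5 was not. All 3 RGS-domain exchange factors that G12 subunits act on were detected, Arhgef12 at 37.6 ± 1.21, Arhgef11 at 21.2 ± 1.85 and Arhgef1 at 1.56 ± 0.834. Of 8 receptor kinases and arrestins 7 were detected, led by Arrb1 at 19.7 ± 1.82 and Adrbk1, which encodes GRK2, at 11.97 ± 1.58. Among 7 chaperone and GoLoco genes, 4 were detected, with Ric8b, the chaperone of Gs and Golf, at 13.8 ± 1.47 and Pdcl, which helps to assemble beta-gamma, at 8.31 ± 1.47. None of these genes passed the test of spread described next.

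No member passed a test of spread between libraries, and few genes of any kind did. The F ratio sets a gene's spread between libraries against the spread usual for its level. In edgeR's quasi-likelihood fit, 11 of 12559 genes passed at an adjusted p of 0.05 (0.0876%), and none of the 38 members tested did, a count that says nothing particular about the members at so low a share. At an unadjusted p of 0.05 only 1 member passed (2.63%, against 5.72% of all genes tested). Rgs9 was that gene, at 28.6, 27.6 and 13.6 CPM (F ratio 5.29, edgeR adjusted p = 0.712), low in replicate 3. The striatal markers, at 188, 267 and 191 CPM, were as low in replicate 1 as in replicate 3, and their part in the values of Rgs9 was not tested. Rgs4 (345, 446 and 459 CPM, F ratio 2.86, edgeR adjusted p = 0.920) and Gng2 (255, 245 and 318 CPM, F ratio 2.33, edgeR adjusted p = 0.974) came next. At the other end, among genes past 10 CPM, Gnb1 was at 737, 722 and 724 CPM (F ratio 0.0154), Gnaz at 130, 134 and 128 (0.0607) and Gnb4 at 16.8, 18.5 and 18.2 (0.0700).

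**Figure D5:**
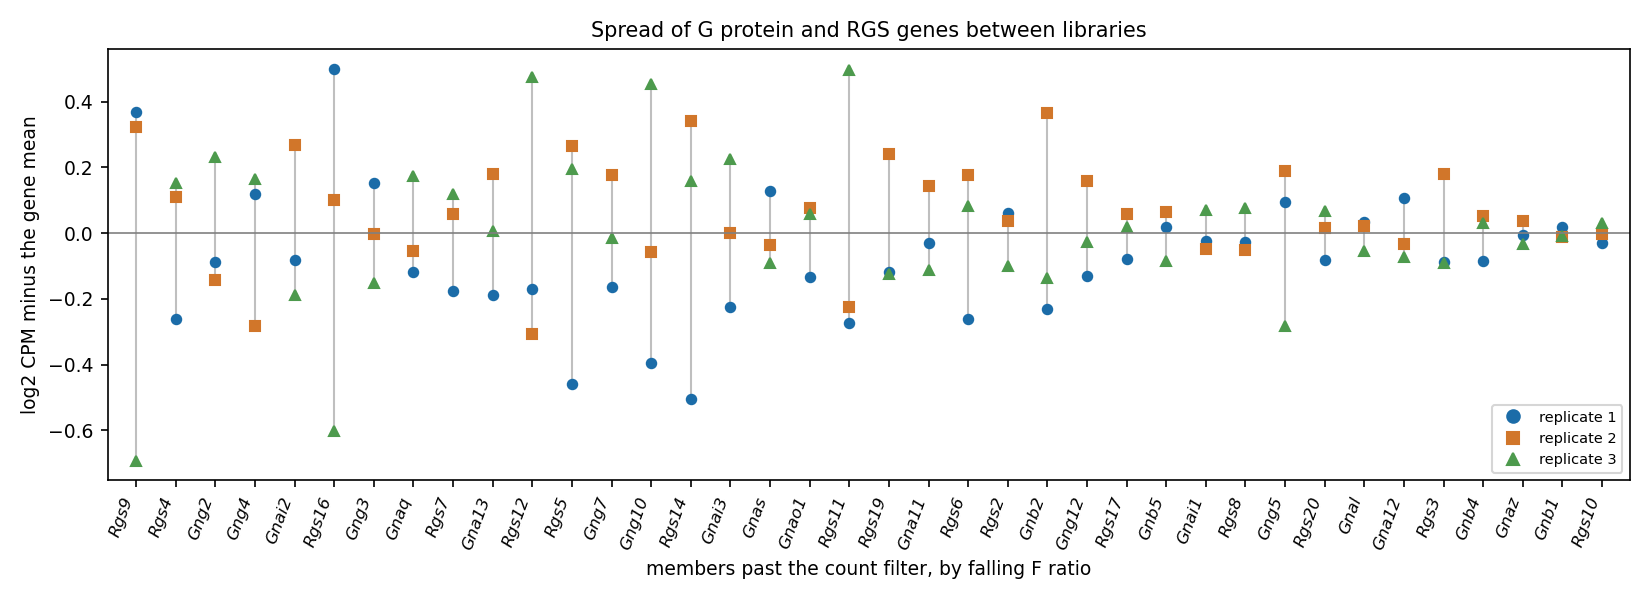
Log2 CPM of each member past the count filter minus its own mean over the libraries, ordered by the F ratio of the spread test, with 1 point per library. Rgs9 stands at 0.37, 0.32 and -0.69 and heads the order, and Gnb1, near its end, stays within 0.02 of its mean.

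Most members shifted little between libraries. The median SD of log2 CPM over libraries was 0.16 for the 38 members tested and 0.22 for all genes tested. These sets were not matched for level: detected members had a median of 65.3 CPM, against 22.2 for all detected genes with a length. Median deviations of the members were -0.08, 0.06 and 0.01 on the log2 scale, against values within 0.01 of 0 for all genes. Of the members, 18 were lowest in replicate 1 (47.4%, against 36.4% of all genes tested), 6 in replicate 2 (15.8%, against 32.1%) and 14 in replicate 3 (36.8%, against 31.5%). RGS genes were lowest in replicate 1 in 9 of 16 cases and in replicate 3 in 5. They summed to 286, 331 and 329 CPM/kb, and to 175, 188 and 181 without Rgs4. In the same libraries glutamatergic markers, with 6 of 6 detected, summed to 6173, 7486 and 8247 CPM. Astrocyte markers summed to 1507, 2417 and 2119 CPM. Both sums were lowest in replicate 1, like that of the mural markers above. Within the astrocyte list, Gfap (14.8, 11.8 and 11.5 CPM) and Aldh1l1 (9.80, 5.46 and 7.08 CPM) were highest in replicate 1. The other astrocyte markers were lowest there. GABAergic markers, with 6 of 6 detected, had their highest sum in replicate 1 (2767, 2483 and 2448 CPM). So had nuclear RNAs such as Malat1, with 5 of 5 detected (10650, 3538 and 2432 CPM). Within the GABAergic list only Gad2 was not highest in replicate 1 (780, 739 and 782 CPM). Sst, an interneuron gene outside that list that passed the spread test, was lowest there (429, 551 and 895 CPM). The part of these markers in the shifts of the members was not tested.

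Within the families, CPM/kb showed little rank correlation with transcript length or GC content. Across the 37 detected members, Spearman's rank correlation between CPM/kb and the GC content of the longest transcript was -0.10, and it was 0.03 with the length of that transcript, against -0.04 and -0.06 across all 11762 detected genes. Undivided CPM had a rank correlation of 0.28 with transcript length across the members, against 0.32 across all detected genes. These are correlations across genes of the same libraries, which are not independent replicates.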

How the data were processed

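RNA-seq of ribosome-bound RNA gave 1 table per library. The deposited values are read counts per gene symbol, not normalized by the authors, and STAR 2.0.0e, HTSeq and mm10 are named in the submitters' processing notes. No source used here states strand handling, counting mode or the gene models used. Reads outside features (12.8% to 16.4% of the tally), ambiguous reads (2.37% to 2.65%) and reads that did not align uniquely (13.8% to 19.4%) were left out.

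Counts were scaled with TMM (edgeR 4.0.16, R 4.3.3), so that 3 counts equal 0.213 to 0.256 CPM. GENCODE M21 (GRCm38, the same assembly as mm10) gave exon lengths, positions and coding ends. All 52 symbols matched, and 96.7% of the 12559 genes past edgeR's filterByExpr (minimum count 10) had a length. Length is the union of annotated exons, not the transcript expressed here. Log2 deviations used a prior count of 2. Spread was tested with an intercept-only glmQLFit (robust), as an F ratio of each quasi-dispersion over the trend, with Benjamini-Hochberg adjustment over all genes, and was tested on simulated data. No library repeats another (chi-square per degree of freedom 12.2 to 28.4 between them). Near-identical transcripts were searched with blastn 2.17.0.

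Alternatives were DESeq2 1.42.0 size factors, other lengths, thresholds, filters and prior counts, and leaving out each library. The members, lists and pairs were chosen with earlier results of these data known. Named in the text are the 3 highest genes of each class, the highest of each subfamily, members of the fixed pairs, genes at the ends of the spread test and genes with a count of 0. Other detected members and partners were named after their values were seen. Of the lists, Ric8a was not analysed here.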

Additional observations from a re-analysis of the deposited data

How the results depend on the processing

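The count of detected members stayed at 37 with DESeq2 size factors and was 39 at 0.5 CPM and 31 at 5 CPM. Leaving out each library gave 37 to 38 members, a median level of 3.71 to 3.87 (log2 CPM/kb, 3.87 with all libraries), a Gi/o share of 55.0% to 57.1%, a Gnb1 share of 81.7% to 82.5%, a Gng3 share of 71.2% to 74.8%, an R4 share of 64.9% to 65.5%, and 20 pairs higher and 8 lower each time. The members' median deviation in replicate 1, -0.08, was -0.05 with either other library left out, as a mean over fewer libraries lies nearer to each. The length divisor moved more. Per longest transcript Gi/o held 42.8%, Gnb1 80.4% and R4 57.5%. Per coding length the median was 6.11, Gi/o held 60.5%, Gnb1 86.4% and Gng3 51.6%. Without division the median was 6.03, Gi/o held 42.9%, Gnb1 84.8%, Gng3 52.7% and R4 53.9%. Signs turned for Rgs17 over Rgs20 per longest transcript (-0.17), Gnao1 over Gnas per coding length (1.26) and, in 2 of 3 libraries, Rgs12 over Rgs14 without division (0.55). The number of genes that passed the spread test, 11, was 10 with DESeq2 size factors, 66 with no count filter, 5 without robust moderation and 4 to 9 with a library left out, 4 of them without replicate 2. No member passed in any of these. The cause of these differences was not tested. Depth limits the genes under about 1 CPM, whose order is not resolved. No paired analysis was possible because there is only 1 group.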

Other observations

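Genes with similar names lie outside the families described. Gnb2l1, which encodes the ribosomal scaffold RACK1, a structural relative of beta subunits, was at 50.6, 53.1 and 51.01 CPM. Gnb1l was at 0.511, 0.812 and 1.91 CPM. The transducin gamma genes Gngt1 and Gngt2, both of the serine type, had 0 CPM in all libraries for Gngt1 and 0.852, 0 and 0.496 CPM for Gngt2. Rgsl1 was at 1.62, 4.65 and 2.48 CPM.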
